A study of Mus musculus with 48 samples.

Results

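The genes described here are 28 members of the mouse cholesterol pathway, covering synthesis, uptake and esterification, chosen by gene symbol. They were chosen with earlier results of these data known. All 28 were found among the 56748 gene identifiers counted in 3 tissues: liver, brown fat (BAT) and epididymal white fat (eWAT). They were followed by RNA sequencing in 48 libraries, 4 in each of 12 groups. Male littermates were of the genotype hepAGT+/+ (here WT) or hepAGT-/- (here KO, a deletion of angiotensinogen, Agt, in hepatocytes). WT and KO alike ate a Western diet with 21% milk fat and 0.2% cholesterol over 12 weeks. Housing was either room temperature (RT, from 20 to 22 °C) or 30 °C, the thermoneutral zone (TN) in which mice need little heat production of their own. Thus the groups were WT RT, KO RT, WT TN and KO TN in each tissue, and the design has no chow-fed group. Strain, age and the means by which the gene was deleted are not given in the sources used here. Levels are counts per megacount of library total (CPM) on the trimmed mean of M values (TMM) scale of the tissue, listed in the order of the replicate numbers and summarised as mean ± SD (n = 4). A member was called changed when the p of edgeR's quasi-likelihood test stayed under 0.05 after Benjamini-Hochberg adjustment, which covered every gene of the comparison. Changes are log2 fold changes, KO minus WT or TN minus RT, with their standard errors (SE).

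As background, cells build cholesterol from acetyl-CoA by way of mevalonate, farnesyl diphosphate, squalene and lanosterol. The transcription factor SREBP-2, encoded by Srebf2, turns on most of these enzymes when membrane sterol is low. The escort protein encoded by Scap carries SREBP-2 out of the endoplasmic reticulum, and the proteins encoded by Insig1 and Insig2 hold both there when sterol is plentiful. Insig1 is itself a target of this system. Surplus cholesterol is stored as esters made by the acyltransferases encoded by Soat1 and Soat2. Liver is the main site of cholesterol handling for the body, and a cholesterol-rich diet is known to repress synthesis there.

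Library totals ran from 23.7 to 43.7 megacounts. In liver Agt itself lay at 275.9 to 435 CPM in WT RT and 143 to 202 CPM in KO RT, and at 309 to 504 CPM in WT TN and 125 to 207 CPM in KO TN (log2 change -1.14 at RT, adjusted p 0.0096, and -1.29 at TN, adjusted p 0.00113). Agt was not called in BAT or eWAT. Which part of the gene was deleted is not given in the sources used here. Defining markers were present in each labelled tissue: 7 hepatocyte markers summed to 55241 to 97521 CPM in liver, 6 brown adipocyte markers to 3027 to 17953 CPM in BAT, and 5 adipocyte markers to 11337 to 19700 CPM in eWAT. In 5 of the 16 BAT libraries (KO RT 14 and 19, KO TN 2, WT TN 6 and 24) 7 skeletal muscle markers summed to over 1000 CPM, and eWAT library WT RT 18 held 986 CPM of 9 epididymis markers. Hepatocyte transcripts were also present in adipose libraries: the 7 hepatocyte markers summed to 25.01 to 4176 CPM in eWAT and to 4.38 to 2057 CPM in BAT. Within BAT, the housing calls and the genotype calls at RT are given with and without the 5 muscle-rich libraries. In eWAT, the genotype calls at RT are given with and without WT RT 18. Tests between tissues were not run without the 5 muscle-rich libraries together, and there each library was only left out singly. Of the 28 members, 27 passed the low-count filter in each tissue. The exception was Npc1l1, the sterol transporter of the intestinal brush border, with 91 counts over all 48 libraries and group means from 0 to 0.159 CPM, and 0 in all 4 liver libraries of WT TN and all 4 eWAT libraries of KO RT. No change is given for it.

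In BAT, mice kept at thermoneutrality had lower levels of most cholesterol synthesis genes than mice kept at room temperature, in WT and in KO alike. In WT 17 of 27 members were called, 15 lower and 2 higher at TN, where 32.5% of all genes tested were called (16.7% lower, 15.9% higher). In KO 15 of 27 were called, all lower, where 15.2% of all genes were called (8.52% lower, 6.64% higher). The median member changed by -0.82 in WT and -1.12 in KO on the log2 scale, while the median over all genes was 0.11 and 0.04. The 4 TN libraries lay wholly below the 4 RT libraries for 14 members in WT and 16 in KO, and wholly above them for 2 members in WT. Over all genes tested, the shares wholly below were 14.3% in WT and 11.8% in KO, and 12.9% were wholly above in WT. The WT and KO libraries of this comparison are separate, and 13 members were called lower in both (of 17 called in WT and 15 in KO), as were 7.6% of all genes tested. These 13 were Acat2, Pmvk, Mvd, Idi1, Fdps, Sqle, Lss, Cyp51, Msmo1, Nsdhl, Sc5d, Dhcr7 and Insig1. The plot of housing effects sets them beside the other tissues.

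**Figure D1:**
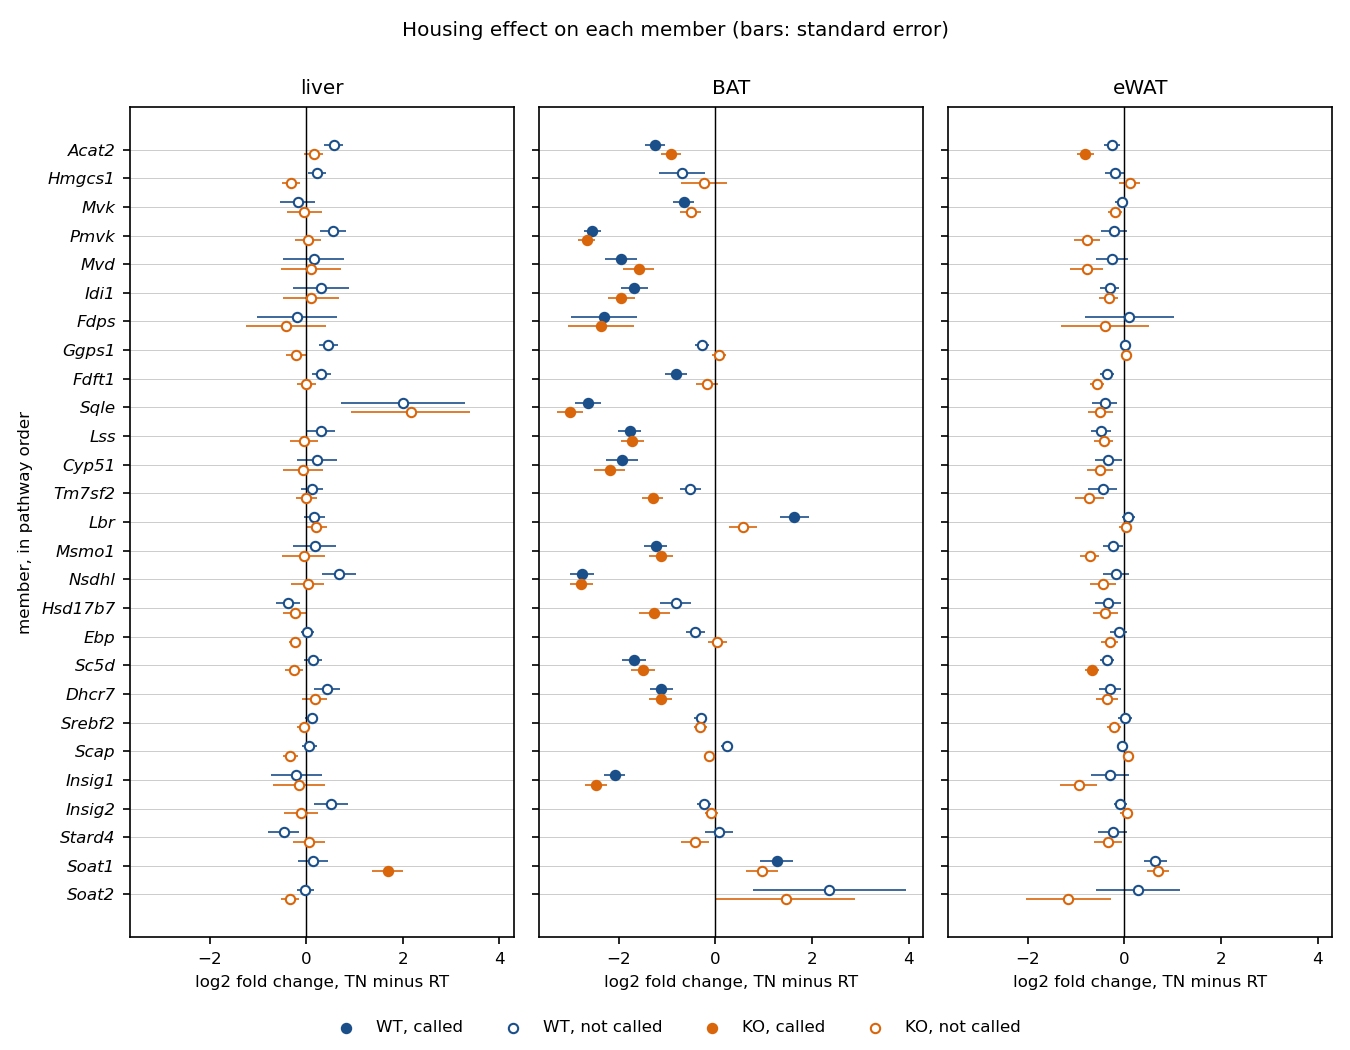
Log2 fold change from RT to TN (horizontal axis) of the 27 tested members (vertical axis, in pathway order) in liver, BAT and eWAT. Points are edgeR estimates with standard error bars, blue for WT and orange for KO, filled where called. In BAT 17 members in WT and 15 in KO are filled, against 1 in liver and 2 in eWAT. Over all genes, 32.5% in WT and 15.2% in KO were called in BAT, 0.0227% and 0.114% in liver, and 0% and 1.74% in eWAT.

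Among the 7 enzymes from acetyl-CoA to farnesyl diphosphate, 6 were called lower in WT BAT at thermoneutrality and 5 in KO BAT. Over all genes tested, 16.7% and 8.52% were called lower. All 7 enzymes had estimates below 0 in WT and in KO, the highest being -0.66 and -0.23. Pmvk (ENSMUSG00000027952, chr3:89454541-89469013, plus strand), the phosphomevalonate kinase, fell furthest of these. Its level was 92.5, 95.1, 113 and 126 CPM in WT RT and 17.3, 16.2, 16.7 and 23.0 CPM in WT TN (a log2 change of -2.54 with SE 0.18 and adjusted p 1.09e-07), a 5.83-fold lower mean. In KO it was 119, 146, 84.2 and 121 CPM at RT and 20.3, 21.0, 15.7 and 17.2 CPM at TN (a log2 change of -2.66 with SE 0.18 and adjusted p 6.09e-08), a 6.33-fold lower mean. No TN library of either genotype reached the lowest RT library, so the groups did not overlap. Idi1, the isomerase that makes the reactive form of the isoprene unit, showed the same separation at a lower level. It was at 28.1, 19.4, 28.3 and 30.9 CPM in WT RT and 6.85, 5.91, 8.09 and 12.4 CPM in WT TN (-1.68, adjusted p 0.000265), and at 13.5, 40.4, 23.3 and 26.7 CPM in KO RT and 5.54, 7.72, 6.78 and 6.97 CPM in KO TN (-1.94, adjusted p 0.000213). Mvd, the decarboxylase that makes isopentenyl diphosphate, fell by 1.94 in WT and by 1.59 in KO on the log2 scale. Acat2, the cytosolic thiolase that starts the pathway, fell by 1.26 and 0.91, and Fdps, the farnesyl diphosphate synthase, had changes of -2.31 and -2.36 at means of only 1.16 CPM in WT RT and 1.11 CPM in KO RT. Mvk, the mevalonate kinase, passed in WT (-0.66, adjusted p 0.0277) and not in KO (-0.51, adjusted p 0.126). Ggps1, the synthase of the side branch to geranylgeranyl groups for proteins, was not called in either genotype (-0.27 and 0.07).

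Hmgcs1 (ENSMUSG00000093930, chr13:119690379-119708260, plus strand), the cytosolic synthase of the early pathway, was the member of this group whose BAT change was not called in either genotype. Its level was 355, 444, 299 and 327 CPM in WT RT and 145, 101, 104 and 531 CPM in WT TN. In WT, 3 TN libraries lay below all 4 RT libraries and the other, WT TN 24, lay above them. With that library the change was not called (-0.69, adjusted p 0.281), and without it Hmgcs1 was lower at TN (log2 change -1.61, adjusted p 0.00029). The KO libraries overlapped, at 196, 334, 336 and 257 CPM at RT and 149, 312, 169.8 and 324 CPM at TN (-0.23, adjusted p 0.813). Library WT TN 24 also had the highest level of its group in Pmvk, Sqle, Nsdhl and Insig1 and the lowest in Fdft1 and Stard4. Its sum of 6 brown adipocyte markers was 7192 CPM, against 3027 to 3969 CPM in the other 3 libraries of the group, and its 7 muscle markers summed to 4604 CPM. Their part in its sterol gene levels was not tested. Leaving it out brought the count in WT from 17 to 20 by adding Hmgcs1, Hsd17b7 (-1.22, adjusted p 0.00432) and Srebf2 (-0.38, adjusted p 0.049). The count over all genes went from 5867 to 6685.

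The enzymes that turn farnesyl diphosphate into squalene and then rebuild the sterol ring held the largest changes. Of 12 members, 8 were called lower and 1 higher in WT BAT, and 9 were called lower in KO BAT. Over all genes tested, 16.7% were called lower and 15.9% higher in WT, and 8.52% lower in KO. Sqle (ENSMUSG00000022351, chr15:59315077-59331192, plus strand), the squalene epoxidase and a rate-limiting step of the late pathway, was at 27.2, 18.2, 26.2 and 29.4 CPM in WT RT and 3.25, 3.05, 3.90 and 6.06 CPM in WT TN (a log2 change of -2.63 with SE 0.27 and adjusted p 4.38e-06). The KO level was 19.9, 34.1, 25.3 and 29.2 CPM at RT and 3.74, 4.91, 2.48 and 2.35 CPM at TN (a log2 change of -3.01 with SE 0.28 and adjusted p 2.04e-06). The means were 6.21-fold lower at TN in WT and 8.05-fold lower in KO, and in neither genotype did the groups overlap. Nsdhl (ENSMUSG00000031349, chrX:72918557-72958514, plus strand), a dehydrogenase that helps strip methyl groups from the sterol ring, was at 88.5, 89.7, 121 and 120.2 CPM in WT RT and 12.4, 11.8, 13.5 and 24.2 CPM in WT TN (a log2 change of -2.76 with SE 0.25 and adjusted p 1.3e-06). The KO level was 102, 119, 81.4 and 109.5 CPM at RT and 14.9, 21.0, 10.5 and 14.0 CPM at TN (a log2 change of -2.77 with SE 0.25 and adjusted p 1.99e-06). Its groups were likewise apart, with means 6.77-fold lower in WT and 6.82-fold lower in KO.

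The other ring enzymes called lower in both genotypes fell by less. Cyp51, the lanosterol demethylase, fell by 1.93 in WT and 2.19 in KO on the log2 scale. Lss, the lanosterol synthase, fell by 1.77 and 1.72, and Sc5d, the sterol desaturase, by 1.69 and 1.49. Msmo1, the methylsterol monooxygenase, fell by 1.24 and 1.12, and Dhcr7, the reductase that completes cholesterol, by 1.12 and 1.13. Fdft1, the squalene synthase, was called in WT (-0.82, adjusted p 0.01) and not in KO (-0.18, adjusted p 0.68), while Hsd17b7, a sterol ketone reductase, was called in KO (-1.26, adjusted p 0.0133) and not in WT (-0.82, adjusted p 0.0603). Ebp, the sterol isomerase, was called in neither (-0.41 and 0.04).

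The sterol reductases encoded by Tm7sf2 and Lbr act on the same intermediate, and their values went opposite ways in BAT. Lbr, which also encodes the lamin B receptor of the inner nuclear membrane, was at 10.2, 6.30, 6.32 and 4.43 CPM in WT RT and 25.3, 23.0, 20.8 and 15.7 CPM in WT TN (1.63, adjusted p 0.000535), a rise with no overlap. The KO level was 22.6, 14.1, 9.88 and 8.89 CPM at RT and 28.3, 15.9, 17.8 and 20.3 CPM at TN, groups that overlapped (0.57, adjusted p 0.213). Tm7sf2 was at 10.5, 10.4, 9.07 and 13.9 CPM in KO RT and 4.25, 5.62, 4.21 and 3.72 CPM in KO TN (-1.30, adjusted p 0.000619), a fall with no overlap. In WT it was at 6.61, 5.49, 6.64 and 4.75 CPM at RT and 4.32, 4.45, 4.65 and 2.94 CPM at TN (-0.52, adjusted p 0.0728). Whether the housing effect differed between the genotypes was tested by the interaction, and none of the 27 members was called in BAT by edgeR (3 at an unadjusted p under 0.05, as were 10.2% of all genes, 0 by DESeq2, 0% of all genes called). The lowest interaction p values of the members, 0.47 after adjustment, were those of Lbr (-1.06) and Tm7sf2 (-0.78).

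**Figure D2:**
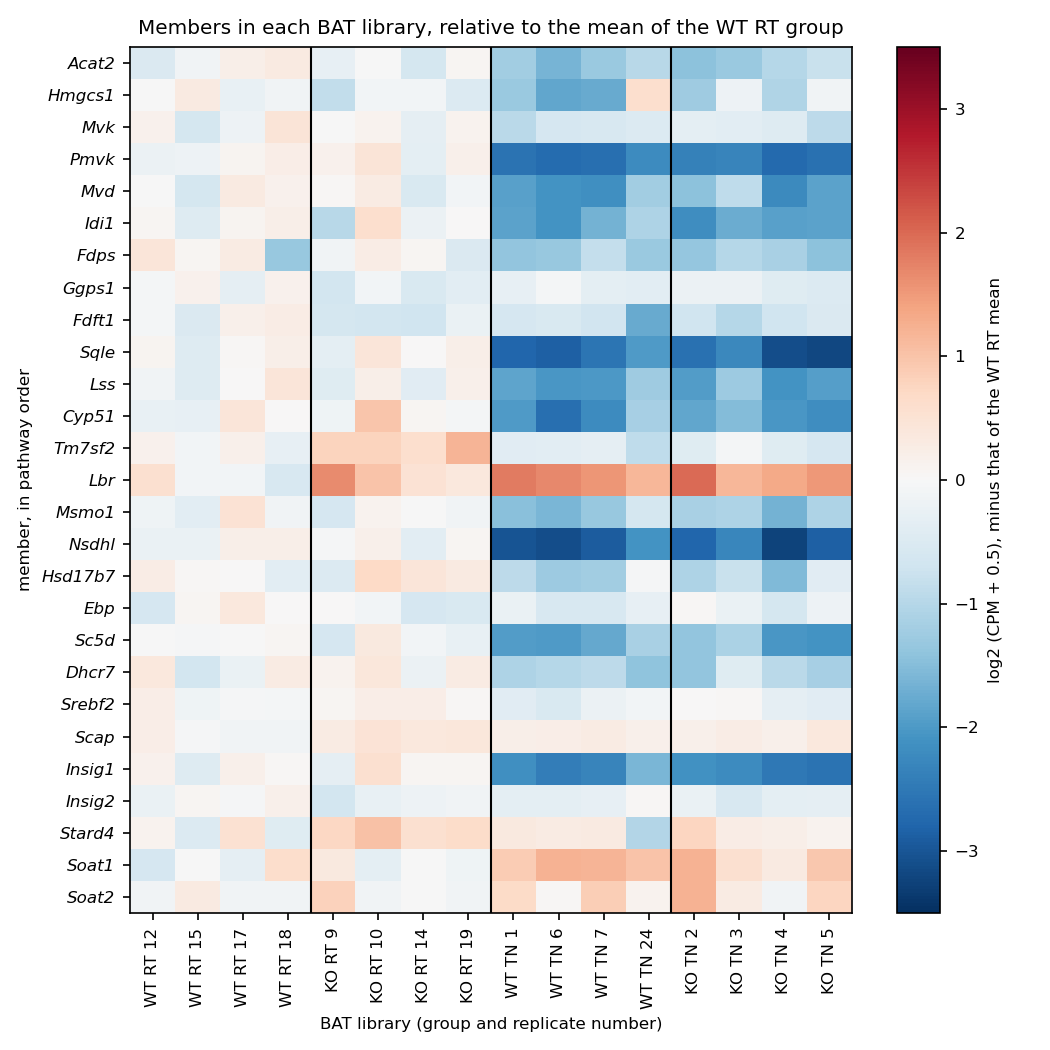
Level of each tested member (rows, pathway order) in each of the 16 BAT libraries (columns, by group and replicate number), as log2 (CPM + 0.5) minus that of the WT RT mean, blue lower and red higher. Pmvk, Sqle, Nsdhl and Insig1 are blue in all 8 TN libraries, and Lbr and Soat1 are red in them. Lbr is also red in the KO RT libraries, and Hmgcs1 in WT TN 24 stands apart from its group.

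Of the 4 regulators, Insig1 was the only one called in BAT. Insig1 (ENSMUSG00000045294, chr5:28071363-28078662, plus strand) was at 565, 366, 572 and 518 CPM in WT RT and 113, 94.6, 102 and 167 CPM in WT TN (-2.08, adjusted p 5.39e-06), and at 406, 748, 532 and 527 CPM in KO RT and 117, 109, 89.0 and 84.1 CPM in KO TN (-2.47, adjusted p 1.99e-06). Again no TN library reached the RT range, and the means were 4.24-fold and 5.55-fold lower. Srebf2, the transcript of SREBP-2 itself, was at 40.4, 30.8, 33.1 and 32.9 CPM in WT RT and 26.1, 23.7, 29.6 and 31.8 CPM in WT TN (-0.30, adjusted p 0.0991). In KO it was at 36.1, 40.7, 40.1 and 35.6 CPM at RT and 34.4, 35.1, 27.6 and 25.9 CPM at TN (-0.31, adjusted p 0.143). Its estimates were smaller than those of Insig1 in size, and it was not called. Scap (0.24 in WT and -0.13 in KO) was not called either. Insig2, the other retention factor, was at 33.9 ± 4.18 CPM in WT RT and 29.0 ± 4.07 CPM in WT TN, and at 27.7 ± 4.38 CPM in KO RT and 26.3 ± 2.34 CPM in KO TN, and was not called.

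Promoters of 4 members are printed here, as examples of the windows in which motifs were counted. Nsdhl, Pmvk and Sc5d were called lower in BAT of both genotypes, and Hmgcs1 is the member whose promoter held the searched sterol regulatory element. Each is the 250 bases before a RefSeq start site on GRCm38.p6, written 5′ to 3′ on the strand of the gene. They lie at chrX:72918271-72918520 (plus strand, Nsdhl), chr3:89454291-89454540 (plus strand, Pmvk, the more upstream of its starts), chr9:42264301-42264550 (minus strand, Sc5d) and chr13:119690101-119690350 (plus strand, Hmgcs1). Capitals mark the NF-Y box CCAAT, or ATTGG where it is on the other strand, and the sterol regulatory element TCACNCCAC.
Nsdhl: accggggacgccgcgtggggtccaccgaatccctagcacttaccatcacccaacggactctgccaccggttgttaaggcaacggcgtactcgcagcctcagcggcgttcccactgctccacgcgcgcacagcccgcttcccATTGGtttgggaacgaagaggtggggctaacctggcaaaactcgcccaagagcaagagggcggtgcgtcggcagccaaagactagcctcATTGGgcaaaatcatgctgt
Pmvk: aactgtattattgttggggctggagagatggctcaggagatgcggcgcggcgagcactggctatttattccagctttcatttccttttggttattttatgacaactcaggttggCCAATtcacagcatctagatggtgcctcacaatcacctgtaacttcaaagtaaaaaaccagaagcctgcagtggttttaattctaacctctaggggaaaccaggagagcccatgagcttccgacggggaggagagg
Sc5d: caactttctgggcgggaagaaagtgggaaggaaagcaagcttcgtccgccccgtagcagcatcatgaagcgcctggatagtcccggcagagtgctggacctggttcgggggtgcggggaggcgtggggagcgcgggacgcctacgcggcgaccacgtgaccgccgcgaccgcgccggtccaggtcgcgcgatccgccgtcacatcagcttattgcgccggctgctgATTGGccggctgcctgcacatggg
Hmgcs1: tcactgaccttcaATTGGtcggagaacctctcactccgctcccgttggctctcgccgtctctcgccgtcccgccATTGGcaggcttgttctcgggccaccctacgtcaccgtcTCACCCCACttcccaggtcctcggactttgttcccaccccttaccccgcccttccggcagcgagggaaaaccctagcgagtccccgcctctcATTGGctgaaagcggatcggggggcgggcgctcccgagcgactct

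A RefSeq promoter entry was matched by symbol for 23 of the 28 members, and a gene was counted when any of its starts held the motif on either strand. CCAAT was found in 21 of the 23 (91.3%), against 39.5% of 17491 protein-coding genes with an entry. The GC box GGGCGG was found in 19 (82.6%), against 45.8% of those genes. TCACNCCAC was found in 1 (Hmgcs1, 4.3%), against 1.2%. No motif holds another, though neighbouring matches can share end bases. These are matches of letters in a short window, with no test.

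Soat1 rose in WT BAT at thermoneutrality. Soat1 (ENSMUSG00000026600, chr1:156424525-156474331, minus strand), the acyltransferase found in most cell types, was at 1.12, 1.91, 1.48 and 3.29 CPM in WT RT and 4.07, 5.18, 5.04 and 4.41 CPM in WT TN (1.27, adjusted p 0.00834). All 4 TN libraries were above all 4 RT libraries. In KO it was at 2.58, 1.43, 1.95 and 1.73 CPM at RT and 5.15, 3.09, 2.57 and 4.24 CPM at TN (0.97, adjusted p 0.0618), which was not called. Soat2, the form of hepatocytes and enterocytes, had means from 0.0419 to 0.335 CPM in BAT and was not called. Stard4, a carrier that moves sterol between membranes, was not called (0.08 and -0.42).

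Markers of other cell types moved with housing in BAT. The sum of 10 macrophage markers was 63.3 to 208 CPM in WT RT and 292 to 486 CPM in WT TN, and 80.4 to 104 CPM in KO RT and 207 to 331 CPM in KO TN, with 8 of 10 markers in WT and 9 of 10 in KO wholly higher at TN. The sum of 5 fibroblast and stellate cell markers was 269.9 to 419 CPM in WT RT, 855 to 1079 CPM in WT TN, 229 to 367 CPM in KO RT and 639 to 1030.5 CPM in KO TN, with 4 of 5 markers wholly higher in each genotype. The 6 brown adipocyte markers summed to 8411 to 17953 CPM in WT RT and 3027 to 7192 CPM in WT TN, and to 8898 to 13442 CPM in KO RT and 3062 to 5377 CPM in KO TN. Of these, 4 of 6 in WT and 5 of 6 in KO were wholly lower at TN. The 5 general adipocyte markers summed to 3559 to 5109.5 CPM in WT RT and 2994 to 4590 CPM in WT TN. In KO they summed to 3294 to 4133 CPM at RT and 3801 to 6220 CPM at TN. At TN 1 of 5 was wholly lower in WT and 2 of 5 were wholly higher in KO. No marker of these lists was at 0 in all libraries of a BAT group. In bulk tissue, fewer cells of a type and less RNA per cell cannot be told apart, and the part of these shifts in the members' changes was not tested. With the 5 muscle-rich libraries left out, a choice made after seeing the data, 17 members were called in WT and 13 in KO, with Sqle at -2.81 and -3.01, Nsdhl at -3.00 and -2.82 and Pmvk at -2.64 and -2.83. This fit kept only WT TN 1 and 7, KO RT 9 and 10 and KO TN 3, 4 and 5 of those groups. Over all genes it called 5137 in WT and 1293 in KO, against 5867 and 2735 with all libraries. In that fit the calls of Mvk (-0.76, adjusted p 0.0634) and Fdps (-1.96, adjusted p 0.142) in WT, and of Fdps (-2.37, adjusted p 0.146) and Hsd17b7 (-1.07, adjusted p 0.115) in KO, were lost. Hmgcs1 (-1.51, adjusted p 0.00226) and Hsd17b7 (-1.14, adjusted p 0.0414) were called in WT there. Some calls were near the threshold: Mvk in WT was lost without any of WT RT 12 or 18 or WT TN 1, 6 or 7 (adjusted p up to 0.126), Fdps in KO without KO RT 10 or 14 or KO TN 2, 4 or 5 (up to 0.0719), and Hsd17b7 in KO without KO RT 10 or KO TN 4 (up to 0.0608). Over all settings run, the log2 change stayed between -0.82 and -0.47 for Mvk in WT, between -2.62 and -2.16 for Fdps in KO and between -1.49 and -1.04 for Hsd17b7 in KO.

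Whether the housing effect differed between liver, BAT and eWAT was tested over all 48 libraries. It differed for 13 of 27 members in WT, where 15% of all genes were called, and for 8 of 27 in KO, where 4.06% were called. The 13 in WT were Acat2, Pmvk, Idi1, Ggps1, Fdft1, Sqle, Lss, Cyp51, Lbr, Nsdhl, Sc5d, Dhcr7 and Insig1, and the 8 in KO were Acat2, Pmvk, Sqle, Lss, Cyp51, Nsdhl, Sc5d and Insig1. Pmvk had the lowest p in both (adjusted p 3.39e-07 and 1.92e-05). Its housing change was 0.56 in liver, -2.54 in BAT and -0.22 in eWAT of WT mice, and 0.04, -2.66 and -0.78 in KO. For Nsdhl the values were 0.68, -2.76 and -0.17 in WT (adjusted p of the difference 1.9e-06) and 0.03, -2.77 and -0.44 in KO (adjusted p 0.000147). The largest gap between tissues for Sqle was between liver, where its uncalled estimates were positive (2.01 and 2.16), and BAT. The count in KO fell to 4 without BAT library KO RT 10.

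**Figure D3:**
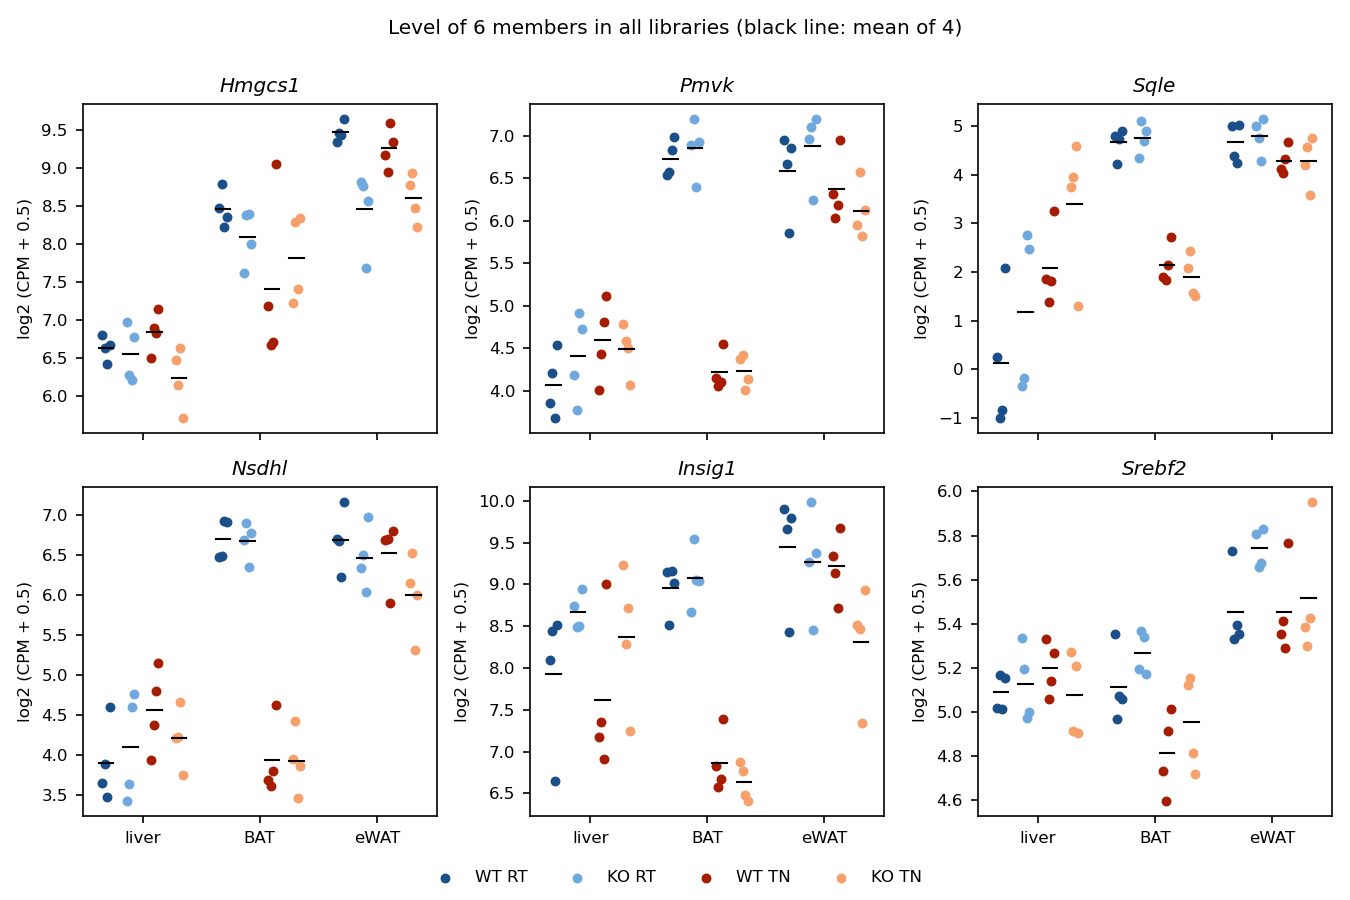
Level of 6 members in all 48 libraries, as log2 (CPM + 0.5) with the mean of the 4 logged values as a black line, by tissue and group; the vertical scale differs between panels. In BAT the 8 RT libraries of Pmvk, Sqle, Nsdhl and Insig1 lie above the 8 TN libraries, and in liver Sqle spreads widely within groups.

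In liver, 1 member was called for housing temperature, Soat1 in KO mice. In WT 0 of 27 members were called by edgeR (2 at an unadjusted p under 0.05, as were 7.25% of all genes, 0 by DESeq2), where 0.0227% of all genes were. In KO 1 of 27 was called, higher at TN, where 0.114% were (0.102% higher). Soat1 was at 2.30, 3.13, 4.18 and 3.23 CPM in KO RT and 9.07, 10.5, 16.7 and 5.17 CPM in KO TN (a log2 change of 1.69 with SE 0.32 and adjusted p 0.0354), with no overlap. In WT liver it was at 3.59, 5.00, 6.98 and 7.80 CPM at RT and 4.90, 6.93, 6.82 and 7.01 CPM at TN (0.14, adjusted p 0.973), and the interaction was not called (1.55, adjusted p 0.448), so that a difference between the genotypes in this effect was not shown. The sum of 10 macrophage markers was 181 to 342 CPM in KO RT and 312 to 862 CPM in KO TN, with 3 of 10 wholly higher at TN. It was highest in KO TN 5 (862 CPM) and KO TN 4 (655 CPM), the libraries with the most Soat1. In KO TN 2 the sum was 312 CPM, below the 342 CPM of KO RT 10, while Soat1 was at 9.07 against 3.13 CPM. The 4 Kupffer cell markers summed to 79.7 to 152 CPM in KO RT and 142 to 308 CPM in KO TN, with 1 of 4 wholly higher. None of these macrophage or Kupffer markers was at 0 in all libraries of a group, and their part in the change was not tested. The Soat1 call was lost in the fit of the 8 libraries compared (adjusted p 0.0665) and without KO RT 9, 10 or 19 or KO TN 4 or 5 (adjusted p from 0.0819 to 0.173).

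Sqle had the largest standard errors of the members in liver and was not called in any liver comparison. Its level was 0.69, 0, 0.0612 and 3.76 CPM in WT RT, 0.291, 0.387, 6.27 and 5.08 CPM in KO RT, 3.14, 2.09, 3.04 and 9.07 CPM in WT TN and 12.9, 15.1, 23.8 and 1.98 CPM in KO TN. Group means thus ran from 1.13 to 13.4 CPM, with single libraries of every group overlapping another group. Its estimated changes were 1.47 and 1.63 for genotype at RT and TN and 2.01 and 2.16 for housing in WT and KO. Their adjusted p values lay between 0.547 and 0.839, and each comparison shares libraries with 2 of the others.

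Hepatocyte Agt deletion was not followed by a called change in any member in liver. At RT 0 of 27 were called by edgeR (4 at an unadjusted p under 0.05, as were 10.2% of all genes, 0 by DESeq2), where 0.0853% of all genes were. At TN 0 of 27 were called (5 at an unadjusted p under 0.05, as were 17.6% of all genes, 0 by DESeq2), where 3.18% of all genes were. At RT 22 of 27 estimates were above 0 (51.8% of all genes), with a median of 0.31, against a median of 0.02 over all genes. In WT RT, library 15 lay above its group mean in only 3 of 27 members. At TN 14 of 27 were above 0 (54.5% of all genes), with a median of 0.08, against 0.05. The interaction called 0 of 27 (2 at an unadjusted p under 0.05, as were 7.33% of all genes, 0 by DESeq2), with 0% of all genes called. Hmgcs1 in liver was at 99.1 ± 10.7 CPM in WT RT and 96.0 ± 25.1 CPM in KO RT, and at 115 ± 20.9 CPM in WT TN and 77.2 ± 20.6 CPM in KO TN (-0.58, adjusted p 0.103 at TN). Insig1 was at 271 ± 121 CPM in WT RT, 410.5 ± 62.2 CPM in KO RT, 235 ± 187 CPM in WT TN and 371 ± 189 CPM in KO TN. In WT TN, library 24 was at 514 CPM, while the other 3 libraries of the group lay at 144, 164 and 120.2 CPM.

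Insig2, the retention factor whose transcript is abundant in liver, had the lowest liver estimate for genotype at TN. It was at 339, 340.1, 404 and 293 CPM in WT TN and 158, 201, 152 and 217 CPM in KO TN (-0.92, adjusted p 0.19). All 4 KO libraries lay below all 4 WT libraries, and the change was not called over the 16 libraries. At RT its WT values were 311, 252, 165 and 241 CPM and its KO values 261, 332, 98.2 and 93.2 CPM, which overlapped. In the fit of only the 8 TN libraries, 2 members were called, Insig2 (-0.92, adjusted p 0.0102) and Stard4 (0.66, adjusted p 0.0307). That fit called 654 genes in all, against 560 in the main fit. Stard4 was at 73.8, 70.6, 59.0 and 105 CPM in WT TN and 121, 128, 123 and 119.7 CPM in KO TN, also with no overlap. Srebf2 stayed within a narrow range in liver, at 33.6 ± 1.97 CPM in WT RT, 34.6 ± 4.24 CPM in KO RT, 36.4 ± 3.14 CPM in WT TN and 33.4 ± 4.52 CPM in KO TN. Idi1 was at 7.54 ± 6.55, 10.7 ± 6.41, 9.24 ± 3.72 and 11.5 ± 5.66 CPM in the same order, and neither was called.

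In eWAT, KO mice at room temperature had less Hmgcs1 and Soat1 and more Fdft1 than WT mice. These were 3 of 27 members called, where 4.34% of all genes were (1.2% higher, 3.13% lower). Hmgcs1 was at 650.1, 705, 691 and 804 CPM in WT RT and 451, 435, 205 and 378 CPM in KO RT (a log2 change of -0.96 with SE 0.21 and adjusted p 0.0175). Fdft1 was at 73.7, 56.3, 62.2 and 50.9 CPM in WT RT and 107, 125, 91.1 and 103 CPM in KO RT (a log2 change of 0.81 with SE 0.15 and adjusted p 0.00577). Soat1 was at 13.7, 13.9, 16.0 and 18.3 CPM in WT RT and 8.72, 6.81, 6.96 and 11.5 CPM in KO RT (a log2 change of -0.87 with SE 0.23 and adjusted p 0.0426). In each of the 3 the groups did not overlap. Fdft1 held 105597 counts over the 48 libraries, and Ctsb and Gm6781, which match its sequence, held 2277856 together, so its level is uncertain. Sqle, the enzyme that follows Fdft1, was not called (0.13, adjusted p 0.866), nor was Idi1, which acts before it (-0.04, adjusted p 0.953). Without WT RT 18, the library with epididymis transcripts, Fdft1 alone was called (0.77, adjusted p 0.0219), while Hmgcs1 (-0.86, adjusted p 0.0672) and Soat1 (-0.75, adjusted p 0.159) were not. Hmgcs1 also missed the threshold without KO RT 19 (adjusted p 0.0536), and Soat1 without any of 7 of the 8 libraries compared (adjusted p up to 0.159). The 6 lipid-associated macrophage markers summed to 78.7 to 193 CPM in WT RT and 30.6 to 50.7 CPM in KO RT, with 5 of 6 wholly lower in KO and none at 0 in all libraries of a group. The 10 general macrophage markers summed to 976 to 1470.2 CPM in WT RT and 811 to 1093.6 CPM in KO RT, and the part of either list in the Soat1 change was not tested.

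At thermoneutrality 0 of 27 members were called between the genotypes in eWAT by edgeR (4 at an unadjusted p under 0.05, as were 13.7% of all genes), where 0.586% of all genes were. DESeq2 called the same 3 members as at RT, Hmgcs1 (-0.66, adjusted p 0.0322), Fdft1 (0.59, adjusted p 0.00893) and Soat1 (-0.82, adjusted p 0.0281). Over all genes it called 675, against 111 by edgeR. The edgeR values were -0.65 for Hmgcs1 (adjusted p 0.158), 0.59 for Fdft1 (adjusted p 0.0659) and -0.82 for Soat1 (adjusted p 0.106). Hmgcs1 was at 579, 494, 773 and 648 CPM in WT TN and 437, 491, 357 and 298 CPM in KO TN, with no overlap. Fdft1 was at 45.3, 41.1, 52.8 and 50.7 CPM in WT TN and 59.1, 65.2, 93.3 and 69.3 CPM in KO TN, also with no overlap. Soat1 was at 35.7, 27.4, 14.6 and 19.1 CPM in WT TN and 12.1, 13.5, 12.7 and 16.6 CPM in KO TN, where the groups overlapped. The 10 macrophage markers summed to 1522 to 2618 CPM in WT TN and 1134 to 1369.9 CPM in KO TN, with 7 of 10 wholly lower in KO, and the 6 lipid-associated macrophage markers to 101 to 363 CPM and 47.9 to 99.6 CPM, with 2 of 6 wholly lower. None was at 0 in all libraries of a group, and their part in these values was not tested. The interaction called 0 of 27 members (1 at an unadjusted p under 0.05, as were 7.6% of all genes, 0 by DESeq2), with 0% of all genes called.

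**Figure D4:**
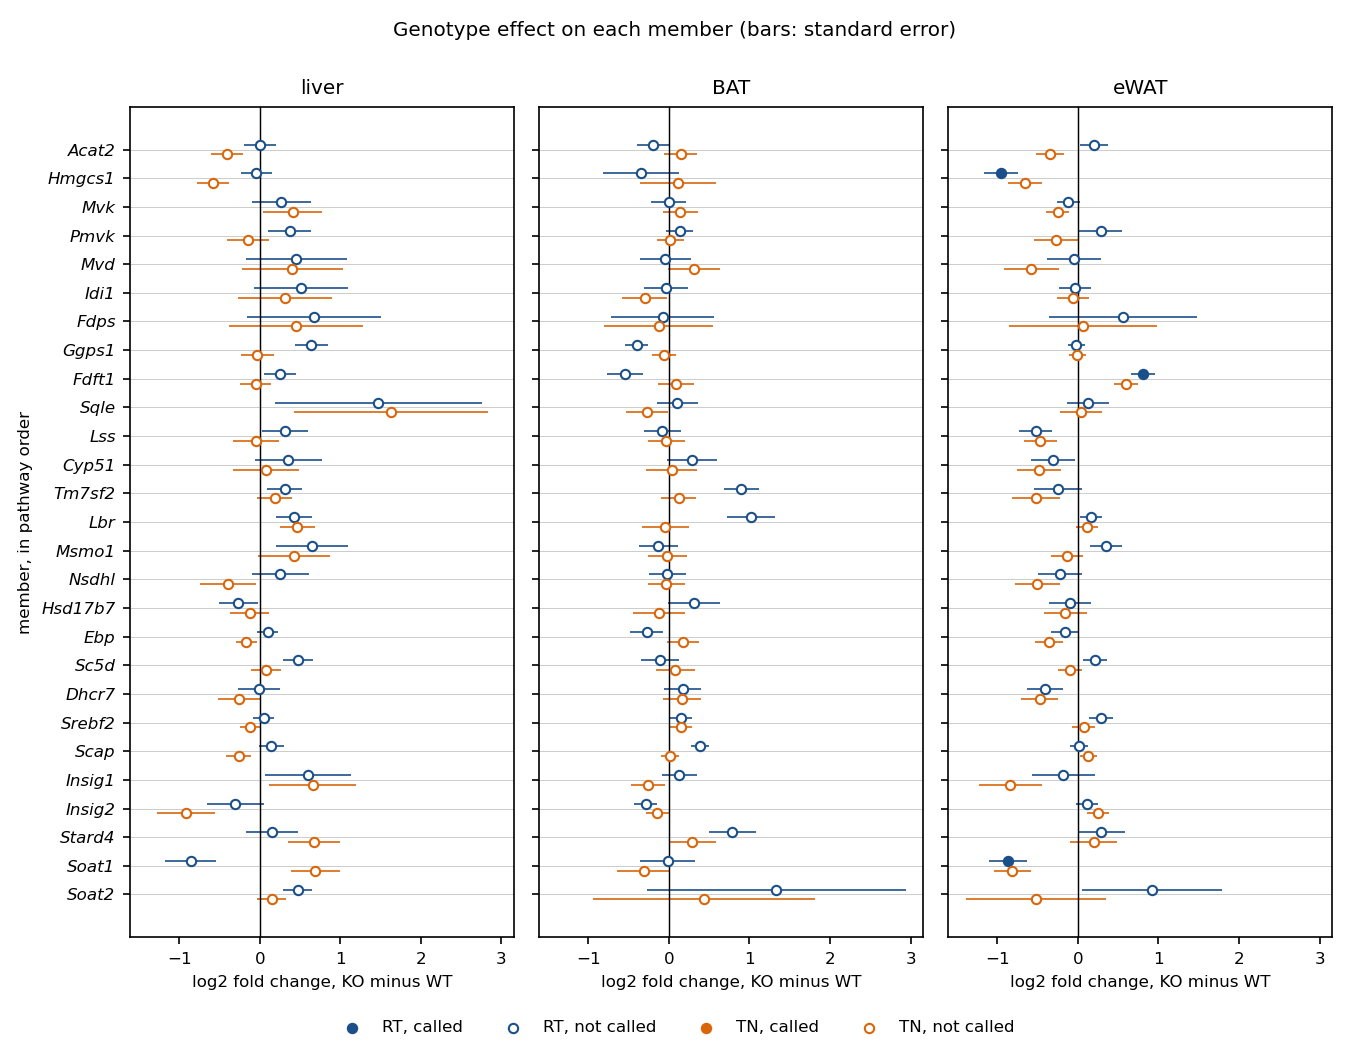
Log2 fold change from WT to KO (horizontal axis) of the 27 tested members (vertical axis, in pathway order) in liver, BAT and eWAT. Points are edgeR estimates with standard error bars, blue at RT and orange at TN, filled where called. The 3 filled points are Hmgcs1, Fdft1 and Soat1 in eWAT at RT.

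Few members were called for housing in eWAT. In WT 0 of 27 were called by edgeR (4 at an unadjusted p under 0.05, as were 6.99% of all genes, 0 by DESeq2), where 0% of all genes were. In KO 2 of 27 were called lower at TN, where 1.74% of all genes were (0.718% lower). Acat2 was at 136, 135, 91.3 and 148 CPM in KO RT and 62.4, 77.5, 79.0 and 72.9 CPM in KO TN (a log2 change of -0.81 with SE 0.17 and adjusted p 0.0293). Sc5d was at 329.8, 335, 274 and 355 CPM in KO RT and 185, 197, 196 and 236 CPM in KO TN (a log2 change of -0.67 with SE 0.15 and adjusted p 0.0357). Neither overlapped, and both lost their call in the fit of only the 8 libraries compared (adjusted p 0.0557 and 0.0554) and without any of KO RT 9, 10 or 19 or KO TN 3 or 4 (adjusted p up to 0.134 and 0.138), Acat2 also without KO TN 21 (0.069). DESeq2 called 5, adding Pmvk (-0.80), Fdft1 (-0.59) and Msmo1 (-0.74), and called 1154 genes in all, against 330 by edgeR. In both genotypes 21 of 27 estimates were below 0, with medians of -0.23 in WT and -0.40 in KO against -0.01 and 0.02 over all genes. Of all genes, 47.8% in WT and 52.4% in KO had estimates above 0. The 10 macrophage markers summed to 976 to 1470.2 CPM in WT RT and 1522 to 2618 CPM in WT TN, and to 811 to 1093.6 CPM in KO RT and 1134 to 1369.9 CPM in KO TN, with 4 of 10 in WT and 5 of 10 in KO wholly higher at TN. The 5 fibroblast and stellate cell markers summed to 1998 to 2348 CPM in WT RT and 2884 to 4038 CPM in WT TN, and to 1659 to 2107 CPM in KO RT and 2496 to 3222 CPM in KO TN, with 3 of 5 wholly higher in each genotype. None of these markers was at 0 in all libraries of a group, and their part in the members' estimates was not tested. Insig1 in eWAT was at 955, 809.6, 344 and 887 CPM in WT RT and 648, 563, 421 and 815 CPM in WT TN (-0.29, adjusted p 0.982). In KO it was at 614, 1010.4, 351 and 666 CPM at RT and 364, 354, 162 and 489 CPM at TN (-0.95, adjusted p 0.228), and the groups overlapped in both genotypes. Sqle was at 25.6 ± 7.25 CPM in WT RT and 19.3 ± 4.16 CPM in WT TN, and at 28 ± 6.96 CPM in KO RT and 19.8 ± 6.62 CPM in KO TN. Idi1 was at 26.4 ± 8.94, 25.6 ± 3.95, 21.4 ± 2.32 and 20.5 ± 3.33 CPM in WT RT, KO RT, WT TN and KO TN. Insig2 was at 76.2 ± 11.1, 82.6 ± 10.8, 72.1 ± 9.47 and 85.6 ± 12.0 CPM in that order, and Srebf2 at 43.6 ± 6.01, 53.1 ± 3.28, 43.8 ± 6.93 and 46.0 ± 10.3 CPM. None of these 5 was called for housing.

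In BAT the genotype changed no member past the threshold. At RT 0 of 27 were called by edgeR (6 at an unadjusted p under 0.05, as were 19.4% of all genes), where 0.0887% of all genes were, and at TN 0 of 27 (0 at an unadjusted p under 0.05, as were 5.24% of all genes, 0 by DESeq2), where 0% were. DESeq2 called 3 at RT, all higher in KO: Tm7sf2 (0.90, adjusted p 0.00528), Lbr (1.02, adjusted p 0.0214) and Scap (0.38, adjusted p 0.0213). Over all genes DESeq2 called 981 there, against 16 in the main edgeR fit. The edgeR fit without WT RT 12 called the same 3 members, and 1979 genes in all. That library held 8411 CPM of the 6 brown adipocyte markers, against 13762 to 17953 CPM in the other 3 of its group, 429 CPM of 4 endothelial markers, against 163 to 194 CPM, and 63.3 CPM of the 10 macrophage markers, against 143 to 208 CPM. The part of these differences was not tested. Tm7sf2 was at 6.61, 5.49, 6.64 and 4.75 CPM in WT RT and 10.5, 10.4, 9.07 and 13.9 CPM in KO RT (0.90, adjusted p 0.0899), and Scap at 31.6, 25.8, 24.5 and 24.7 CPM and 32.6, 37.1, 34.5 and 34.9 CPM (0.38, adjusted p 0.111), both with no overlap. Stard4 also had no overlap (0.79, adjusted p 0.165), and neither edgeR nor DESeq2 called it. The share of all genes without overlap is not given for this comparison. Lbr overlapped between the groups (1.02, adjusted p 0.111). With the muscle-rich libraries left out, which kept only replicates 9 and 10 of KO RT, Lbr was called (1.40, adjusted p 0.0212). The count of calls over all genes in that fit is not given here.

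The genotype effect at RT differed between tissues for 2 of 27 members, where 2.06% of all genes were called, and at TN for 0 (2 at an unadjusted p under 0.05, as were 14.4% of all genes), where 0.904% were. Fdft1 had changes of 0.25 in liver, -0.55 in BAT and 0.81 in eWAT (adjusted p of the difference 0.0214). Ggps1 had 0.64, -0.40 and -0.02 (adjusted p 0.00799). Ggps1 was at 8.68, 12.0, 6.15 and 10.1 CPM in liver of WT RT and 10.7, 15.6, 15.3 and 16.0 CPM in liver of KO RT, and at 33.3, 38.9, 28 and 38.7 CPM and 22.0, 32.5, 23.9 and 26.9 CPM in BAT. Within a tissue neither of these Ggps1 changes was called. With the replicate number as a block the count went from 2 to 0, with adjusted p of 0.196 for Fdft1 and 0.0919 for Ggps1. Over all genes that fit called 55, against 451 in the main fit.

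Soat2 was highest in liver and Soat1 in eWAT. Soat2 was at 49.7 ± 9.00 CPM in WT RT, 68.9 ± 12.4 CPM in KO RT, 49.1 ± 6.15 CPM in WT TN and 54.4 ± 17.1 CPM in KO TN of liver. No adipose group mean was above 0.725 CPM, that of eWAT in KO RT. The hepatocyte markers in eWAT summed to 108 to 4176 CPM in KO RT and to 25.01 to 1513 CPM in the other 3 groups, and their part in the adipose level of Soat2 was not tested. Averaged over the 4 conditions, liver exceeded BAT by 8.61 and eWAT by 7.44 on the log2 scale (adjusted p 1.04e-22 and 2.55e-22), and BAT minus eWAT was -1.17, adjusted p 0.0208. For Soat1 liver minus eWAT was -0.76, adjusted p 1.91e-05, liver minus BAT 1.18, adjusted p 5.08e-09, and BAT minus eWAT -1.94, adjusted p 1.3e-14. Across the 16 libraries of a tissue, the log2 level of Soat1 and that of the 10 summed macrophage markers had a Pearson r of 0.41 in liver, 0.57 in BAT and 0.5 in eWAT after group means were taken out. Both values of a point come from 1 library and share its depth and scaling, and the relation is given as a description.

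**Figure D5:**
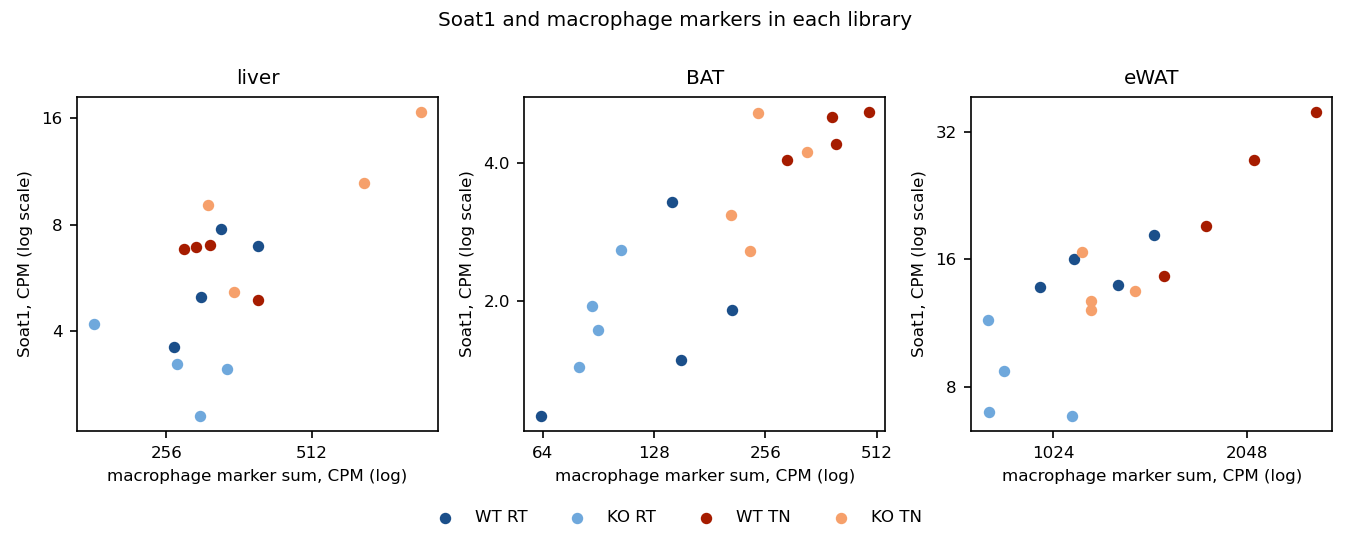
Soat1 level (vertical, log scale) against the sum of 10 macrophage markers (horizontal, log scale) in each library, in liver, BAT and eWAT, coloured by group. The liver libraries KO TN 4 and 5, at 655 and 862 CPM of markers, have the 2 highest Soat1 levels of that tissue.

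Levels over the 4 conditions differed between tissues for most members, as for most genes. Liver and eWAT differed for 24 of 27 members (73.8% of all genes called), liver and BAT for 23 (68.6%), and BAT and eWAT for 20 (60.3%). Of those 20, 17 were lower in BAT, as were 31.1% of all genes. These contrasts average RT and TN. At RT the BAT mean was below the eWAT mean for 17 of 27 members, and at TN for 23 of 27, with no test at either temperature. On the scale of the 48-library fit (8 libraries to a mean), Pmvk was at 119 CPM in BAT and 88.3 CPM in eWAT at RT, and at 19.9 and 62.8 CPM at TN. Nsdhl was at 110.5 and 78.7 CPM at RT, and at 16.5 and 64.9 CPM at TN. Among those higher in liver than in both adipose tissues were Soat2, Stard4 (3.54 over BAT and 3.45 over eWAT), Tm7sf2 (3.32 and 2.69), Ebp (3.18 and 2.18), Insig2 (3.12 and 2.09) and Sc5d (2.47 and 1.41). Hmgcs1 went the other way, with liver minus BAT at -1.37 and liver minus eWAT at -1.87. Sqle was also lower in liver, at -1.30 against BAT and -2.10 against eWAT. Srebf2 was called in 1 of the 3 contrasts, 0.20 higher in liver than in BAT (adjusted p 0.00622). Per kilobase of annotated exon and averaged over the 4 conditions, Insig1 had the highest level of the members in each tissue, at 104 CPM per kilobase in liver, 103 in BAT and 191 in eWAT. In BAT this order turned with housing. Insig1 was at 163 CPM per kilobase in WT RT and 179 in KO RT. At TN it was at 38.5 in WT and 32.2 in KO, while Hmgcs1 was at 47.9 and 52.0 and Acat2 at 43.4 and 48.1. The WT TN mean of Hmgcs1 includes library 24, which stood apart from its group at 531 CPM. The order without that library was not computed. In WT TN of liver Insig2 was the highest, at 99.0 CPM per kilobase.

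Within groups, more pairs of members had a positive than a negative correlation. Over the 351 pairs of members, the median Pearson r of log2 CPM after removal of group means, over 16 libraries, was 0.35 in liver, 0.25 in eWAT and 0.12 in BAT. All points of an r share library, depth and scaling. In liver the pair closest to each other were Cyp51 and Dhcr7 (r = 0.948), and in eWAT Cyp51 with Hsd17b7 and with Lss (r = 0.959 each). In BAT they were Sqle and Sc5d (r = 0.907). Insig2 had a negative median r with the other members in liver (-0.297) and eWAT (-0.294). In WT RT liver, library 18 lay above the group mean in 24 of 27 members and library 15 in 3 of 27, and in WT TN liver library 24 lay above it in 22 of 27.

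A wider list of 34 pathway genes, of which 33 were matched, covered sterol sensing, lysosomal release, transfer and prenylation. In WT BAT 17 of these 33 were called for housing, 12 lower and 5 higher at TN, and in KO BAT 7 of 33, 5 lower and 2 higher, where 32.5% and 15.2% of all genes were called. Among those that fell in WT were Gramd1c, a sterol transfer protein (-1.14), and Pdss2, a subunit of the synthase for the coenzyme Q tail (-1.09). Among those that fell in KO were Lipa, the lysosomal acid lipase that frees cholesterol from esters (-0.97), and Pdss2 (-0.96). In liver 2 of 33 were called, both lower in KO at TN, where 3.18% of all genes were called, among them Lipa (-0.65, adjusted p 0.0296). In eWAT 2 of 33 were called, both lower in KO at RT, where 4.34% of all genes were called: Nceh1, a cholesteryl ester hydrolase (-1.16, adjusted p 0.0414), and Nus1, a subunit of the dolichol synthase (-0.48, adjusted p 0.0414). The list's median was -0.25 in WT BAT and -0.15 in KO BAT.

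Some members share sequence with other genes, so that counting could split or merge their reads. In the GENCODE M21 transcripts, Acat2 matched Acat3 and Tcp1 over up to 1477 bases, Fdft1 matched Gm6781 and Ctsb over up to 1249 bases, and Fdps matched 5 other genes over up to 1066 bases. Those 5 held 6993 counts over the 48 libraries against 1809 for Fdps, so its level is uncertain. Ggps1, Idi1 and Tm7sf2 also had matches of over 500 bases. Msmo1 matched 56 other genes over up to 203 bases, and Dhcr7 matched 23 over up to 227 bases. Acat2 held 170299 counts, against 375935 for Acat3 and Tcp1 together, so its level is uncertain too. Exon bases are shared with another gene by 10 members, the largest share being that of Fdps (26.7%, with Gm43738 on the same strand). Fdft1 shares 18.3% of its exon bases with Ctsb on the other strand and Hmgcs1 12.1% with Gm48342, and whether counting used strand is not given in the sources used here, so the reads of these partners cannot be told apart. Sqle, Pmvk, Nsdhl, Sc5d, Insig2, Srebf2 and Soat1 had no such match at 95% identity over 150 bases and no overlapping exon.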

How the data were processed

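Raw counts per gene were deposited by the authors for 48 libraries made from total RNA of snap-frozen tissue. Per the submitters' processing notes, the tools were fastp, STAR 2.6.1d and featureCounts 1.5.0-p3 and the builds GRCm38 and mm10, while the annotation release and strand setting are not given in the sources used here. Samples were grouped by the labels' tissue, genotype and housing. The members and lists were chosen with earlier results of these data known. Identifiers were given symbols from GENCODE M21, which named 91.8% of 56748, and named genes held at least 94.85% of each library's counts.

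Counts of each tissue (16 libraries, 23.71 to 43.69 megacounts) were fitted with edgeR 4.0.16 in R 4.3.3 (filterByExpr with a minimum count of 10, TMM factors, quasi-likelihood F test on the 4 groups, Benjamini-Hochberg). Tissues were compared in a fit of all 48 libraries. Leaving out a library there reused the gene set and dispersion trend of the full fit. Fits were tested on simulated data. Alternatives were DESeq2 1.42.0, other scaling (RLE), other filters, only the libraries compared, each library left out, the muscle-rich libraries left out and, between tissues, a replicate block. Nothing in the labels says whether same-numbered libraries come from 1 mouse, so p values measure the spread between these libraries. Named with full statistics are the 3 largest called changes per comparison, and with levels in all groups Hmgcs1, Sqle, Idi1, Insig1, Insig2, Srebf2, Soat1, Soat2 and Npc1l1. Of the wider pathway list, at most 3 called genes per comparison are named, and 1 gene is not reported here. Promoters are from RefSeq (GRCm38.p6).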

Additional observations from a re-analysis of the deposited data

Results flagged for a closer look

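In 14 of 153 groups of 4 libraries tested, over 13 members, 1 library stood apart from the other 3, its gap to the nearest, as a share of the group's range, being over Dixon's limit for 4 values. Chance flags about 1 in 20 groups. Of these, 5 were in BAT of WT TN and were library 24: Hmgcs1 at 531 CPM, Pmvk at 23.0 CPM, Nsdhl at 24.2 CPM and Insig2 at 35.0 CPM were its highest, and Fdft1 at 30.4 CPM its lowest. In liver of WT TN, Acat2 at 92.3 CPM, Sqle at 9.07 CPM and Insig1 at 514 CPM were high in 1 library, and Soat1 at 4.90 CPM was low in 1. The others were Idi1 in liver of KO TN (highest, 19.9 CPM), Fdft1 in BAT of KO RT (highest, 88.6 CPM), Nsdhl in eWAT of WT TN (lowest, 59.1 CPM), and Srebf2 in eWAT of WT RT (highest, 52.5 CPM) and of KO TN (highest, 61.4 CPM).

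An effect differed between the 3 tissues by edgeR's test of the difference in 23 cases. For genotype at RT these were Ggps1 (adjusted p 0.00799) and Fdft1 (0.0214), whose adjusted p with a replicate block was 0.0919 and 0.196. For housing in WT the adjusted p was 7.27e-05 for Acat2, 3.39e-07 for Pmvk, 0.0292 for Idi1, 0.0228 for Ggps1, 0.0159 for Fdft1, 0.00587 for Sqle and 0.000334 for Lss. It was 0.00515 for Cyp51, 0.000757 for Lbr, 1.9e-06 for Nsdhl, 6.07e-05 for Sc5d, 0.0069 for Dhcr7 and 0.0247 for Insig1. For housing in KO it was 0.0438 for Acat2, 1.92e-05 for Pmvk, 0.00653 for Sqle, 0.0125 for Lss, 0.0191 for Cyp51, 0.000147 for Nsdhl, 0.0296 for Sc5d and 0.0373 for Insig1.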

How the results depend on the processing

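Of 38 called pairs of member and comparison within a tissue, 29 kept their call in every setting run and none changed direction. The causes of the differences below were not tested. With DESeq2 in place of edgeR, the count of members called went from 0 to 3 for genotype at RT in BAT, from 0 to 3 for genotype at TN in eWAT and from 2 to 5 for housing in KO eWAT. Over all genes these counts went from 16 to 981, from 111 to 675 and from 330 to 1154. With only the libraries compared, the count of members went from 0 to 2 for genotype at TN in liver (over all genes from 560 to 654), from 1 to 0 for housing in KO liver and from 2 to 0 for housing in KO eWAT. Without the muscle-rich libraries it went from 0 to 1 for genotype at RT in BAT. How many genes that fit called in all is not given here. With each library left out in turn, counts ran from 0 to 1 for housing in KO liver, from 0 to 3 for genotype at RT in BAT (3 without WT RT 12), from 1 to 2 for genotype at RT in eWAT (1 without WT RT 18), from 0 to 1 for genotype at TN in eWAT (1 without WT TN 8) and from 0 to 3 for housing in KO eWAT. For BAT housing they ran from 16 to 20 in WT and from 13 to 17 in KO. For differences between tissues they ran from 1 to 3 for genotype at RT (1 without BAT WT RT 17 or 18), from 0 to 1 for genotype at TN (1 without BAT WT TN 24), from 11 to 16 for housing in WT and from 4 to 9 for housing in KO (4 without BAT KO RT 10). With a replicate block between tissues, the members whose genotype effect differed went from 2 to 0 at RT and from 0 to 1 at TN (Insig1, adjusted p 0.0379), and those whose housing effect differed from 13 to 12 in WT and from 8 to 9 in KO. Over all genes, the genotype counts of that fit were 55 at RT and 42 at TN, against 451 and 198 in the main fit. Whether same-numbered libraries come from 1 mouse is not given, and the median correlation of their deviations was near 0 (0.013 between liver and eWAT, 0.011 between liver and BAT and -0.052 between BAT and eWAT). Within a tissue no paired analysis was possible because the groups share no numbers. Depth limits Npc1l1 in all tissues and Soat2 in adipose tissue.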
